A study of Mus musculus with 18 samples.

Results

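Kidney cortex given only the DMSO vehicle was compared between Klf6PTKO and Klf6fl/fl mice, to find the expression differences between these genotypes that precede any toxic injury. The comparison took the 6 libraries whose titles name DMSO, 3 titled PTKO and 3 titled fl/fl, of 18 in all. Klf6fl/fl mice carry floxed alleles of Klf6, and Klf6PTKO is the genotype that the submitters use for loss of Klf6 in the proximal tubule. The strain is given as C57Bl/6 for every library, with no substrain. The remaining 12 libraries are of the same genotypes treated with aristolochic acid I (AAI), a nephrotoxin from plants. AAI was given for 3 weeks, and some of these kidneys had a remodeling period of the same length afterwards, called 6 weeks here after the titles, with 3 libraries of each genotype at each time. The labels give no age and no week for the DMSO kidneys. They name neither the Cre driver nor its place in the genome, and nothing in them ties replicates to different animals. The p-values below therefore measure the spread between these libraries, which may be technical.

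Klf6 belongs to the Krüppel-like zinc finger proteins, transcription factors that bind GC boxes and CACCC motifs in promoters. The proximal tubule reabsorbs most of the filtered glucose, amino acids and phosphate and lives on mitochondrial oxidation. In a conditional knockout, a Cre transgene and the stretch of chromosome bred in with it can differ between the genotypes besides the floxed gene. Here loss of Klf6, the transgene and linked alleles cannot be told apart, since no group with Cre alone was analysed.

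Levels are CPM, the reads of a gene relative to its library's total, as the authors deposited them, and differences are PTKO minus fl/fl on the log2(CPM + 1) scale, which understates the change of low genes. Read totals were 18561515 to 20787996 in the PTKO-labelled DMSO libraries and 16516093 to 19683107 in the fl/fl ones, so 3 reads correspond to 0.144 to 0.162 CPM and to 0.152 to 0.182 CPM. These floors cover counting error only. A proximal tubule marker and sex-linked genes were read in each library, which does not check the cortex label against medulla. Slc34a1, the phosphate transporter of the proximal tubule, had 9540, 8570 and 8940 CPM in PTKO-labelled libraries and 9040, 8730 and 7840 CPM in fl/fl libraries. The Y-linked Ddx3y was present in all 6 libraries at 42.1 to 53.6 CPM, and Xist did not exceed 0.108 CPM. In whole cortex, fewer cells of a type and less RNA per cell cannot be told apart.

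Klf6 (ENSMUSG00000000078.7, chr13:5861482-5870394, plus strand, mm10) was not called between the genotypes. It had 40.2, 43.2 and 56.7 CPM in the PTKO-labelled libraries, against 39.7, 39.2 and 42.3 CPM in the fl/fl libraries. The difference was 0.19 (95% interval -0.18 to 0.56), with a two-sided exact permutation p of 0.2, where 3 libraries against 3 can give no less than 0.1. No library of the knockout label stood below the lowest fl/fl library. The table holds all Klf6 reads of all cortical cells and no exon of its own, so it does not check the genotype, and "PTKO-labelled" is used for that reason. Of the other Krüppel-like factors none was called (0 of 15 tested in the family, Klf6 included, and 0 at an unadjusted p under 0.05), where 0.288% of all tested genes were called and 6.53% had such an unadjusted p. The family's median difference was -0.05, and that of all tested genes was -0.02. edgeR and DESeq2 called no member either.

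Across the transcriptome 42 of 14604 tested genes were called (0.288%), at an adjusted p under 0.05 in limma with Benjamini-Hochberg adjustment over all tested genes. Of these, 28 (0.192%) were higher and 14 (0.0959%) were lower in the PTKO-labelled kidneys. An unadjusted p under 0.05 was found for 954 genes (6.53%). The higher genes differed by 0.61 to 3.55 with a median of 1.05, and the lower ones by -1.89 to -0.46 with a median of -1.31. All 42 had 3 PTKO-labelled libraries outside the range of the 3 fl/fl libraries, a property that 16.5% of all tested genes shared (7.04% higher and 9.44% lower). Just inside the threshold lay Ptprg, Ncoa4 and Ethe1 (adjusted p = 0.0347, 0.0356 and 0.0399), and just outside lay Lad1, Tmem242 and Hddc3 (0.0629, 0.0629 and 0.0715). With the DMSO groups fitted alone, limma called 13 of the 42 and lost 29. Of the genes named here, only Eno1b, Fam213b, Abhd1, Wdfy1, Angptl7, AW822252, H2-Bl, Gfra1, Ogdhl, Slc6a20a, Shisa7 and Eci1 kept their calls. All other named calls were lost. They include Atp10d and Scfd2 (adjusted p = 0.0654 each), Arntl2 (0.096), Cox18 (0.0946), Nnt (0.0974), Clcn6 and Sult1c2 (0.184 each) and Clec3b (0.186). The highest adjusted p-values were those of 4930481A15Rik (0.398), Uchl1 (0.372), Synpr (0.332) and Ethe1 (0.301). In 9 of the 42, both groups averaged under 5 CPM, and 7 are gene models with clone or number names.

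**Figure D1:**
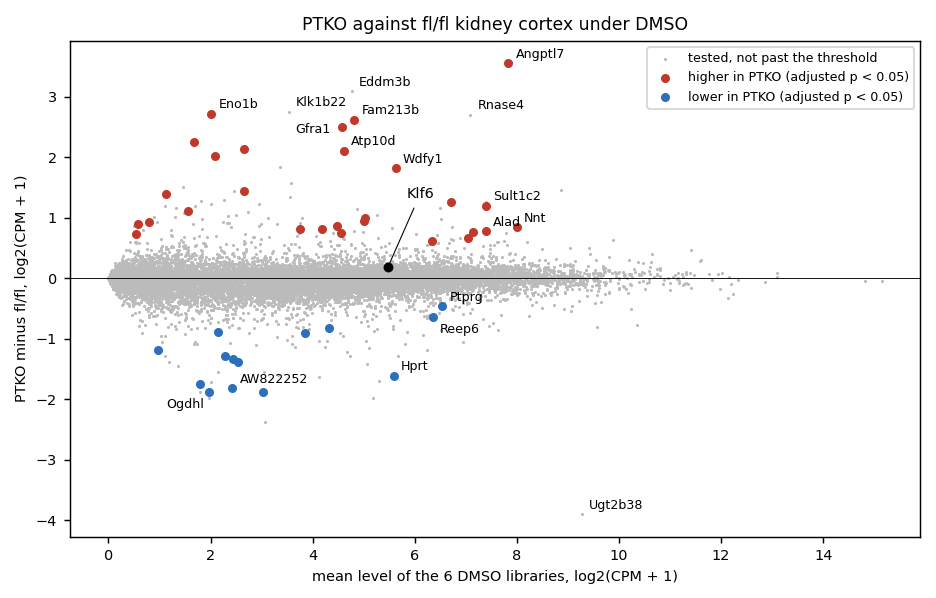
Each point is 1 of the 14604 tested genes, placed by its mean level in the 6 DMSO libraries (log2 of CPM + 1) and by the PTKO minus fl/fl difference on the same scale. Called genes are coloured red where higher (28) and blue where lower (14) in PTKO, and Klf6 lies at 0.19 among the genes that were not called.

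A purine salvage gene was lower. Hprt, which recycles hypoxanthine and guanine into nucleotides, lies on the X chromosome (ENSMUSG00000025630.8, chrX:52988137-53021659, plus strand). It had 27.4, 26.6 and 15.7 CPM in the PTKO-labelled libraries, against 71.0, 68.4 and 74.2 CPM in the fl/fl libraries. All PTKO-labelled libraries were low, PTKO replicate 3 the lowest, and the ratio of the means was 0.326. The log2 difference was -1.61 (95% interval -1.98 to -1.25, limma adjusted p = 0.000179). With the DMSO groups fitted alone, without the spread of the AAI libraries, the difference was the same and the call was lost (limma adjusted p = 0.0656). As background, the Hprt locus is widely used as a docking site for transgenes. Whether an insertion lies there in these mice was not tested.

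A heme synthesis gene and its neighbour were higher. Alad, which condenses aminolevulinic acid in heme synthesis (ENSMUSG00000028393.10, chr4:62509169-62519918, minus strand), had 183, 198 and 251 CPM in the PTKO-labelled libraries, against 129, 114 and 122 CPM in fl/fl libraries (0.77, limma adjusted p = 0.00266). Its neighbour Hdhd3, a hydrolase of the haloacid dehalogenase family (ENSMUSG00000038422.2, chr4:62499008-62503467, minus strand), had 24.9, 25.3 and 33.2 CPM in PTKO-labelled libraries, against 14, 15.2 and 14.7 CPM in fl/fl libraries (0.87, limma adjusted p = 0.00567). In both genes the 3 PTKO-labelled libraries stood above every fl/fl library. With the DMSO groups fitted alone both calls were lost (limma adjusted p = 0.129 for Alad and 0.0974 for Hdhd3). As background, the copy number of a segment with Alad varies among inbred mouse strains.

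The promoters of Hprt and of the neighbouring pair Alad and Hdhd3 are printed because Hprt was lower in every comparison and because the pair lies side by side and was higher in every comparison. Each runs 5′ to 3′ from 250 bases before to 50 after a RefSeq start, taken from RefSeq on GRCm38.p6, at chrX:52987828-52988127 (plus strand), chr4:62519860-62520159 (minus strand) and chr4:62502151-62502450 (minus strand). Capitals mark the letters CACCC and GGGCGG on either strand.
Hprt: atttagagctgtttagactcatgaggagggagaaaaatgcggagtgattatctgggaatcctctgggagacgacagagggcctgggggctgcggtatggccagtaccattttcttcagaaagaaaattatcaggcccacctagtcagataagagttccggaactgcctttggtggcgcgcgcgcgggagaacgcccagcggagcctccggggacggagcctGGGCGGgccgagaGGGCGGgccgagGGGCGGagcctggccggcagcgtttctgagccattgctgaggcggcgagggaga
Alad: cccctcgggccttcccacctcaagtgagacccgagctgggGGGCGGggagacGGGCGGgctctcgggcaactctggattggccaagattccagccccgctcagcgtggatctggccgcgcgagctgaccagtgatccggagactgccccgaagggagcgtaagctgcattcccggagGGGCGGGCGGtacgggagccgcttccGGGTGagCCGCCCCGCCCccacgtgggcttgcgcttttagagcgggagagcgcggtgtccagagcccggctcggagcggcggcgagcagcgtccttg
Hdhd3: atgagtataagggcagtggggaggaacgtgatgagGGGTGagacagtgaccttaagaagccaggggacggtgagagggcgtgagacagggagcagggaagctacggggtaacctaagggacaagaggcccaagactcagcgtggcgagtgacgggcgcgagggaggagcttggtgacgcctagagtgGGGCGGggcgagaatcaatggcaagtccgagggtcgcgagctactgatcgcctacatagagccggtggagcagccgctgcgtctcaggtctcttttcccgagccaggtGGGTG
RefSeq promoters were matched for 26 of the 42 genes. CACCC occurred in 11 of 15 higher genes (73.3%) and 5 of 11 lower genes (45.5%), against 67.5% of 10960 tested genes with a promoter in the table and 59.8% of all 27025. GGGCGG occurred in 9 of 15 higher genes (60.0%) and 9 of 11 lower genes (81.8%), against 66.0% of the tested genes and 38.2% of all. A gene counted if any of its promoters in the table held the letters. Alad has another there, at chr4:62520014-62520313 (minus strand), with 0 CACCC and 2 GGGCGG, where the printed one has 1 and 6. Both strands were searched, the motifs may share bases, and a match is a description of these letters only.

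Nnt, the mitochondrial transhydrogenase that makes NADPH from NADH, had 295, 295 and 394 CPM in PTKO-labelled libraries, against 193, 173 and 178 CPM in fl/fl libraries (0.84, limma adjusted p = 0.00642). The groups did not overlap, and without fl/fl replicate 2 the difference was 0.81 with an adjusted p of 0.0526. As background, C57BL/6J mice carry a deletion within Nnt that other C57BL/6 substrains lack. The labels do not name the substrain, and reads over the deleted exons are not separated in a gene table.

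Other calls were mitochondrial or iron-handling genes. Eci1, an isomerase of fatty acid oxidation, had 95, 94.1 and 99.8 CPM in PTKO-labelled libraries, against 62.7, 64 and 61 CPM in fl/fl libraries (0.61, limma adjusted p = 0.0192). Ethe1, which oxidises hydrogen sulfide products, differed by 0.66 (adjusted p = 0.0399), and Cox18, which inserts a cytochrome oxidase subunit, by 0.82 (adjusted p = 0.00495). Ogdhl, a relative of the 2-oxoglutarate dehydrogenase subunit, went the other way, with 0.949, 0.577 and 0.485 CPM in PTKO-labelled libraries, against 6.18, 5.44 and 3.96 CPM in fl/fl libraries. Its difference was -1.88 (adjusted p = 0.00495), and its groups lay far apart at a low level. Ncoa4, the receptor that delivers ferritin for breakdown, was also lower at -1.39 (adjusted p = 0.0356). Eci1 lost its call in all 6 fits that each left out a DMSO library (highest adjusted p = 0.121, without PTKO replicate 3). Ethe1 lost its call in 5 of 6 (0.28, without PTKO replicate 3) and Ncoa4 in 4 of 6 (0.236, without fl/fl replicate 2).

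Among secreted proteins and receptors was the largest difference of the 42 on the log2(CPM + 1) scale, a rank that depends on that scale. Angptl7, a secreted angiopoietin-like protein (ENSMUSG00000028989.3, chr4:148495183-148500460, minus strand), had 455, 281 and 525 CPM in PTKO-labelled libraries, against 28.3, 34.3 and 39.4 CPM in fl/fl libraries. The lowest PTKO-labelled library, replicate 2, was far above the highest fl/fl library, and the ratio of the means was 12.4. The log2 difference was 3.55 (95% interval 2.69 to 4.41, limma adjusted p = 0.000317). With a pseudocount of 0.1 added to CPM in place of 1, Angptl7 differed by 3.59. The low genes Eno1b and Abhd1 then differed by more, at 5.54 and 4.52. Gfra1, the co-receptor for the growth factor GDNF, had 34.3, 32.2 and 51.9 CPM in PTKO-labelled libraries, against 5.69, 5.49 and 6.92 CPM in fl/fl libraries (2.50, adjusted p = 0.00299). Clec3b, the plasminogen-binding tetranectin, was higher by 1.39 (adjusted p = 0.00567) at 1.25, 1.83 and 3.45 CPM in PTKO-labelled libraries, against 0.242, 0.152 and 0.106 CPM in fl/fl libraries. The receptor tyrosine phosphatase Ptprg was lower by a small amount, with 82.1, 79.2 and 70.4 CPM in PTKO-labelled libraries and 103, 107 and 110 CPM in fl/fl libraries. Its difference of -0.46 (adjusted p = 0.0347) was lost in 5 of 6 fits that each left out a library. Synpr, a synaptic vesicle protein, was lower by -1.19 (adjusted p = 0.0138) at levels of 0.45, 0.0481 and 0 CPM in PTKO-labelled libraries, against 1.15, 2.95 and 1.11 CPM in fl/fl libraries, and lost its call in 2 such fits (highest adjusted p = 0.117, without PTKO replicate 3).

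Several called genes act at membranes or in vesicle traffic. Atp10d, a lipid flippase (ENSMUSG00000046808.17, chr5:72203329-72298775, plus strand), had 32.1, 27.9 and 57.4 CPM in PTKO-labelled libraries, against 8.48, 6.86 and 8.40 CPM in fl/fl libraries (2.11, limma adjusted p = 1.79e-05). GENCODE lists it as a polymorphic pseudogene, and as background the C57BL/6 allele carries a premature stop codon. Wdfy1, an endosomal adaptor of Toll-like receptors, had 72.2, 57.0 and 99.3 CPM in PTKO-labelled libraries, against 19.6, 20 and 21.6 CPM in fl/fl libraries (1.82, adjusted p = 5.79e-06). Every PTKO-labelled library of these genes stood above the fl/fl range, and PTKO replicate 3 was the highest in both. Clcn6, a chloride and proton exchanger of late endosomes, was higher by 1.0 (adjusted p = 0.00472), Scfd2, of the family that steers vesicle fusion, by 0.81 (adjusted p = 0.000856), and Slc6a20a, an imino acid transporter of the tubular brush border, by 0.75 (adjusted p = 0.0148). The call of Slc6a20a was lost in 4 of 6 fits that each left out a library, with the highest adjusted p, 0.103, without PTKO replicate 3.

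Shisa7, an auxiliary subunit of neuronal ion channels, had 7.49, 9.62 and 10.6 CPM in PTKO-labelled libraries, against 1.03, 1.52 and 1.43 CPM in fl/fl libraries (2.13, limma adjusted p = 0.0151). Its neighbour Eps8l1, an actin regulator, had 6.49, 9.19 and 9.05 CPM in PTKO-labelled libraries, against 2.24, 1.93 and 2.96 CPM in fl/fl libraries (1.45, adjusted p = 0.0138). Neither pair of groups overlapped. Both calls were lost in 4 of 6 fits that each left out a library, with the highest adjusted p, 0.117 for Shisa7 and 0.105 for Eps8l1, without PTKO replicate 3. Lower were Tbc1d4, which restrains glucose transporter traffic (-0.90, adjusted p = 0.0208), and Reep6, which shapes the endoplasmic reticulum (-0.64, adjusted p = 0.0343). Tbc1d4 lost its call in 5 of 6 such fits and Reep6 in 5 of 6, with the highest adjusted p of 0.151 and 0.261 without PTKO replicate 3.

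Among regulators, Arntl2, a partner of the clock protein CLOCK, had 4.55, 3.85 and 9.37 CPM in PTKO-labelled libraries, against 0.727, 0.559 and 0.528 CPM in fl/fl libraries (2.03, limma adjusted p = 0.000179). All 3 PTKO-labelled libraries were above the fl/fl range, and PTKO replicate 3 was the highest. Nkiras1, which binds the inhibitors of NF-kappaB, was higher by 0.94 (adjusted p = 0.00594), a call lost without fl/fl replicate 1 (0.88, adjusted p = 0.0552). The zinc finger gene Zfp951, 1 of a large family with close copies, was higher by 1.11 (adjusted p = 0.0135), a call lost without PTKO replicate 2 (1.06, adjusted p = 0.0651). The deubiquitinase Uchl1 was lower by -1.29 (adjusted p = 0.0318), with 2.30, 2.93 and 0.593 CPM in PTKO-labelled libraries and 5.39, 5.18 and 6.71 CPM in fl/fl libraries. Its call was lost when any fl/fl library was left out, with adjusted p up to 0.125.

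Other called genes encode enzymes. Fam213b, which makes prostaglandin F2-type lipids from endoperoxides, had 37.7, 36.7 and 68.6 CPM in PTKO-labelled libraries, against 7.27, 5.69 and 6.92 CPM in fl/fl libraries (2.62, limma adjusted p = 2.1e-06). Sult1c2, a sulfotransferase, had 182, 196 and 326 CPM in PTKO-labelled libraries, against 103, 96.4 and 96.2 CPM in fl/fl libraries (1.2, adjusted p = 0.00594). In both, PTKO replicate 3 was well above the other PTKO-labelled libraries, and all 3 were above fl/fl. Abhd1, an alpha/beta hydrolase, had 3.7, 3.08 and 6.2 CPM in PTKO-labelled libraries, against 0.0605, 0.0508 and 0.159 CPM in fl/fl libraries (2.25, adjusted p = 3.73e-06). Isoc2a, a hydrolase-like gene with a close copy beside it, was higher by 0.77 (adjusted p = 0.0233), and its copy Isoc2b differed by 1.0 without passing (adjusted p = 0.28). How the authors' counting split reads between these copies is not given in the sources used here. Ttc39b, linked to high-density lipoprotein in mice, was lower by -0.82 (adjusted p = 0.0208). Isoc2a and Ttc39b lost their calls in 5 and 4 of 6 fits that each left out a library, with adjusted p up to 0.182 (without PTKO replicate 3) and 0.157 (without fl/fl replicate 2).

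Gene copies and unnamed models were also among the calls. Eno1b, an intronless copy of the enolase gene on chromosome 18, had the smallest adjusted p (1.35e-06, limma). It had 5.29, 4.28 and 8.51 CPM in PTKO-labelled libraries, against 0, 0.102 and 0 CPM in fl/fl libraries. These are 353 reads in the PTKO-labelled libraries and 2 reads in the fl/fl libraries, a ratio per read sequenced of 164 (95% counting interval 45.0 to 1360). The fitted difference was 2.72. Since Eno1b shares most of its sequence with Eno1, its reads depend on how the authors' counting placed them. H2-Bl, a class I histocompatibility gene that GENCODE also lists as a polymorphic pseudogene, was higher by 0.93 (adjusted p = 0.00173). Gm5801 (0.90) and Gm1045 (0.74) were higher, and 1700112E06Rik (-1.75), AW822252 (-1.82), Gm10516 (-1.33), 4930481A15Rik (-1.89) and Gm13157 (-0.89) were lower. GENCODE lists Gm10516 and 4930481A15Rik as antisense genes, and whether the counting used strand is not given in the sources used here. Calls lost in at least 3 of 6 fits without a library were those of Gm1045 (5), 4930481A15Rik (3) and Gm13157 (5).

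**Figure D2:**
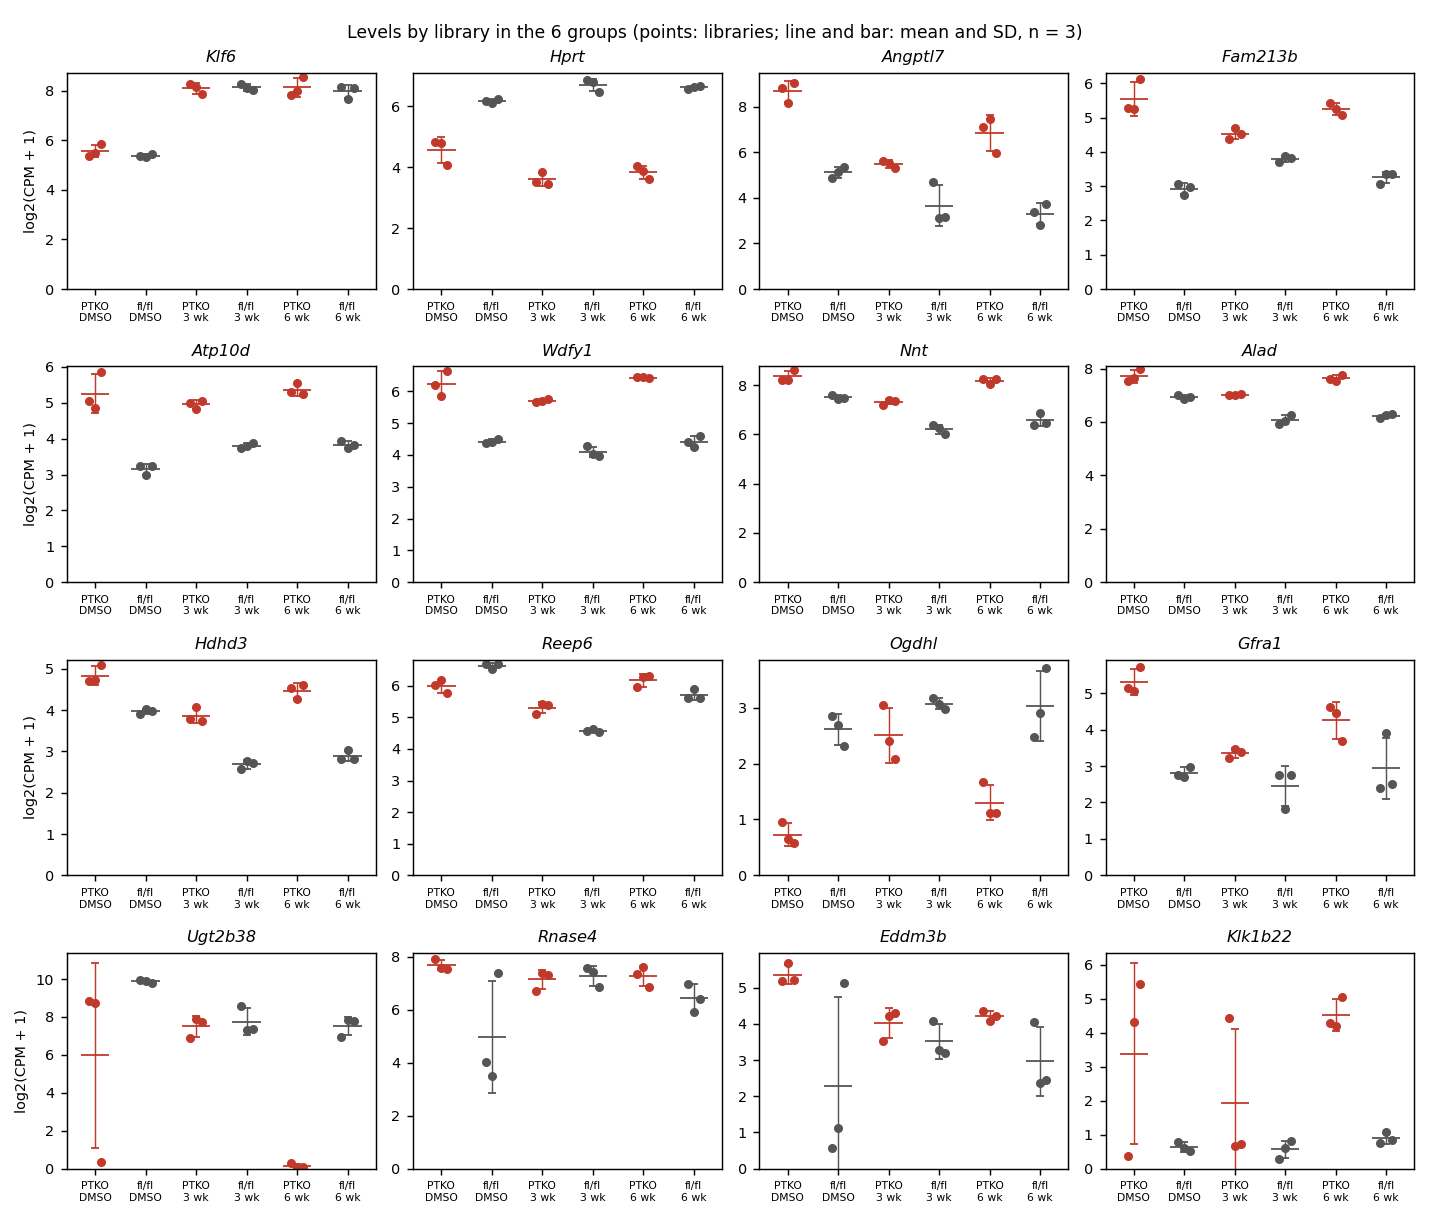
Each panel gives 1 gene, with log2(CPM + 1) on the vertical axis and the 6 groups on the horizontal axis, PTKO-labelled libraries in red and fl/fl libraries in grey; points are libraries, and lines with bars are the mean and SD of 3. Hprt is low in every PTKO-labelled group and Reep6 changes side after AAI, while the bottom row holds 4 genes that were not called under DMSO and whose libraries of 1 group stand far apart.

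Of 31 lists of pathways and cell types, 29 had no member called by limma under DMSO, where 0.288% of all tested genes were called and 6.53% had an unadjusted p under 0.05. At such low shares a list of this size often holds no call, and nothing is read from a count of 0. The exceptions were fatty acid oxidation, with Eci1 as 1 of 31 tested members, and the glucuronosyl- and sulfotransferases, with Sult1c2 as 1 of 19. The call of Eci1 was lost in all 6 fits that each left out a DMSO library. No marker of the first and second proximal tubule segments was called (0 of 20, with 1 at an unadjusted p under 0.05), and none of the third segment (0 of 16, with 1). Their median differences were 0.12 and -0.13. The list of branched-chain amino acid breakdown had 0 of 31 called, with 1 at an unadjusted p under 0.05 and a median of -0.04. Tubular injury genes had 0 of 22 called, with 1 at an unadjusted p under 0.05 and a median of -0.10. edgeR called a member of 1 list, Sult1c2, and DESeq2 called members of 4 lists, which were Eci1, Sult1c2 with Ugt2a3, the injury gene Cdkn1a and the clock gene Arntl.

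Marker sums of the cell types overlapped between the groups in most lists. The 14 podocyte genes summed to 1120 to 1460 CPM in PTKO-labelled libraries and 1110 to 1270 CPM in fl/fl libraries, while macrophage genes summed to 178 to 186 CPM in PTKO-labelled libraries and 170 to 254 CPM in fl/fl libraries. Fibroblast and pericyte genes summed to 334 to 603 CPM in PTKO-labelled libraries and 320 to 775 CPM in fl/fl libraries. Distal convoluted tubule genes did not overlap in sum, at 1520 to 1720 CPM in PTKO-labelled libraries and 1760 to 2140 CPM in fl/fl libraries, with 0 of 8 called by limma and 2 at an unadjusted p under 0.05. Collecting duct genes ran from 892 to 1190 CPM in PTKO-labelled libraries and from 1160 to 1330 CPM in fl/fl libraries, with 0 of 16 called and 2 at an unadjusted p under 0.05. The fat cell genes Adipoq, Plin1 and Cfd reached 6.78, 4.52 and 21.4 CPM in PTKO replicate 2 alone, and no more than 0.254, 0.0499 and 0.813 CPM in the other 5 libraries. The full list of 16 fat cell markers did not stand high there. It summed to 4650, 3080 and 3420 CPM in PTKO-labelled libraries and to 2840, 3210 and 3190 CPM in fl/fl libraries. That list holds Pck1, which is also on the list of proximal tubule markers. Without PTKO replicate 2 of the DMSO group and of the 6-week group, which shares the high Adipoq, Plin1 and Cfd, limma called 38 genes under DMSO. Of these, 29 were among the 42. Genes of the liver stood high in fl/fl replicate 1. A list of 10 hepatocyte genes, written after the values were seen, summed to 48.7, 44.3 and 43.0 CPM in PTKO-labelled libraries and to 211, 71.9 and 47.2 CPM in fl/fl libraries, with 9 of the 10 highest in fl/fl replicate 1. None of the 10 is among the 42, and without fl/fl replicate 1 limma called 26 genes, all 26 of them among the 42.

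PTKO replicate 3 was the most distant library. Its log2 levels correlated with those of the other 5 at 0.985 to 0.9896, where the other pairs reached 0.9896 to 0.9952. It was the highest PTKO-labelled library in 23 of the 28 higher genes and the lowest in 10 of the 14 lower genes. Clock genes stood apart in it, and Arntl had 5.64, 4.38 and 15.2 CPM in PTKO-labelled libraries, against 3.63, 2.79 and 2.43 CPM in fl/fl libraries, and Per1 had 34.0, 53.4 and 20.1 CPM in PTKO-labelled libraries, against 54.8, 62.0 and 57.1 CPM in fl/fl libraries. Neither gene was called (adjusted p = 0.381 and 0.548), and the clock list had 0 of 20 called with 5 at an unadjusted p under 0.05. That list does not hold Arntl2, the partner of CLOCK, which was called (limma adjusted p = 0.000179). Arntl2 was also highest in PTKO replicate 3, at 4.55, 3.85 and 9.37 CPM in PTKO-labelled libraries. Heat shock genes stood high in it as well, with Hsph1, a chaperone, at 143, 143 and 417 CPM in PTKO-labelled libraries and 130, 140 and 148 CPM in fl/fl libraries. That list had 0 of 27 called, 4 at an unadjusted p under 0.05 and a median of 0.33. Without PTKO replicate 3 limma called 28 genes, and all 28 were among the 42. The part of the time of day, of stress or of that library in the called differences was not tested.

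The DMSO calls recurred under AAI, in libraries whose levels did not enter the DMSO differences but whose spread entered their p-values. At 3 weeks 27 of the 42 (64.3%) were called in the same direction, where 14.2% of all tested genes were called at all (6.22% higher and 8.0% lower). At 6 weeks 37 of the 42 (88.1%) were called in the same direction, where 15.1% of all tested genes were called (3.27% higher and 11.8% lower). Both times gave the same call for 26 genes, 19 higher and 7 lower, and 853 of all tested genes (5.84%) were called in the same direction at both times. The estimates had the same sign as under DMSO in 40 of 42 genes at 3 weeks and 41 of 42 at 6 weeks, against 53.7% and 60.7% of all tested genes. Seen from the other side, the shared genes were 27 of 2077 calls at 3 weeks (1.3%) and 37 of 2198 at 6 weeks (1.68%). The 3 comparisons share no library but do share 1 pooled estimate of each gene's spread. With each pair of groups fitted alone, limma called 18 genes under DMSO, of which 7 recurred at both times. In those fits 1411 of the 14604 tested genes were called at 3 weeks and 163 at 6 weeks, in either direction.

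The groups did not overlap, in the same direction as under DMSO, for 32 of the 42 genes at 3 weeks, where 33.7% of all tested genes did not overlap (14.5% higher and 19.3% lower). At 6 weeks this held for 38 of the 42, where 27.7% of all tested genes did not overlap (6.59% higher and 21.1% lower).

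The size of the differences was mostly smaller at 3 weeks. It was smaller than under DMSO in 35 of the 42 genes at 3 weeks and in 24 of the 42 at 6 weeks. The 42 genes were chosen by their DMSO difference, which by itself favours smaller estimates in other libraries. No effect of AAI is read from these counts or from the medians that follow. The 28 higher genes had a median difference of 0.80 at 3 weeks and 1.10 at 6 weeks, beside 1.05 under DMSO. The 14 lower genes had a median of -0.70 at 3 weeks and -1.19 at 6 weeks, beside -1.31 under DMSO. Across the 42 genes the DMSO differences correlated with those at 3 weeks at a Pearson r of 0.835 and with those at 6 weeks at 0.91, where all 14604 tested genes gave 0.107 and 0.303. These correlations run across genes, which are not independent replicates. The 42 were chosen by DMSO differences away from 0 on either side, which raises r by itself. Their values are therefore not comparable with those of all tested genes.

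Hprt was lower at all 3 points. At 3 weeks of AAI it had 10.3, 13.2 and 10 CPM in PTKO-labelled libraries, against 114, 109 and 87.1 CPM in fl/fl libraries (-3.10, limma adjusted p = 8.82e-08). At 6 weeks it had 15.3, 13.7 and 11.2 CPM in PTKO-labelled libraries, against 93.5, 97.3 and 99.8 CPM in fl/fl libraries (-2.77, adjusted p = 2.36e-07). The PTKO-labelled libraries were far below the fl/fl range each time, and the estimate was larger in size after AAI than under DMSO. The interaction of genotype with treatment passed at 3 weeks with -1.48 (limma adjusted p = 0.0277). At 6 weeks it was -1.16 and did not pass (limma adjusted p = 0.0946). Of all tested genes 41 (0.281%) had such an interaction at 3 weeks, 0.164% upward and 0.116% downward, and 10 (0.0685%) at 6 weeks, 0.0274% upward and 0.0411% downward, and of the 42 DMSO calls 3 had one at 3 weeks (Fam213b, Hprt and Reep6) and 1 at 6 weeks (Reep6).

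Eno1b, Wdfy1, Alad, Hdhd3 and Nnt were called as higher in all 3 comparisons. Eno1b had 5.98, 7.31 and 8.14 CPM in PTKO-labelled libraries and 0.0746, 0.141 and 0.174 CPM in fl/fl libraries at 3 weeks (2.84, limma adjusted p = 3.54e-07). At 6 weeks it had 10.4, 11.6 and 14.1 CPM in PTKO-labelled libraries and 0.0498, 0.171 and 0.155 CPM in fl/fl libraries (3.53, adjusted p = 2.68e-08). No fl/fl library of any treatment came near the PTKO-labelled ones. Wdfy1 differed by 1.60 at 3 weeks and 2.01 at 6 weeks, Alad by 0.94 and 1.40, Hdhd3 by 1.18 and 1.59, and Nnt by 1.11 and 1.60. Their adjusted p-values were 0.000511 or less at 3 weeks and 6.03e-06 or less at 6 weeks.

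Fam213b and Angptl7 narrowed at 3 weeks. Angptl7 had 48.5, 45.2 and 38.5 CPM in PTKO-labelled libraries and 24.7, 7.69 and 7.98 CPM in fl/fl libraries at 3 weeks (1.83, limma adjusted p = 0.0103). After 6 weeks Angptl7 had 137, 174 and 61.1 CPM in PTKO-labelled libraries and 9.42, 5.97 and 12.1 CPM in fl/fl libraries (3.54, adjusted p = 0.000141). The groups did not overlap at either time, and the interaction did not pass at 3 weeks (-1.72, adjusted p = 0.131) or at 6 weeks (-0.01, adjusted p = 0.993). Fam213b differed by 0.74 at 3 weeks and 1.98 at 6 weeks, and its interaction passed at 3 weeks (-1.88, adjusted p = 0.0109) and not at 6 weeks (-0.64, adjusted p = 0.299).

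The 4 calls that did not recur in the same direction at either time were Reep6, Zfp951, Synpr and Eps8l1. Reep6 changed side. It had 64.4, 71.0 and 53.4 CPM in PTKO-labelled libraries and 101, 90.7 and 102 CPM in fl/fl libraries under DMSO. At 3 weeks it had 33.2, 41.4 and 40.9 CPM in PTKO-labelled libraries, against 22.5, 23.7 and 22.3 CPM in fl/fl libraries (0.72, limma adjusted p = 0.00314). After 6 weeks Reep6 had 60.6, 76.3 and 77.5 CPM in PTKO-labelled libraries, against 47.7, 58.3 and 48.2 CPM in fl/fl libraries (0.46, adjusted p = 0.0219). The groups did not overlap in any of the 3 comparisons. Zfp951 was near equal after AAI (0.16 and 0.08), Synpr did not exceed 0.218 CPM in any AAI library, and Eps8l1 kept its sign without passing (0.44 and 0.61, adjusted p = 0.249 and 0.106). Shisa7 was called at 3 weeks and not at 6 weeks (1.22 and 1.10, adjusted p = 0.04 and 0.0552), and 11 genes were called at 6 weeks only.

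**Figure D3:**
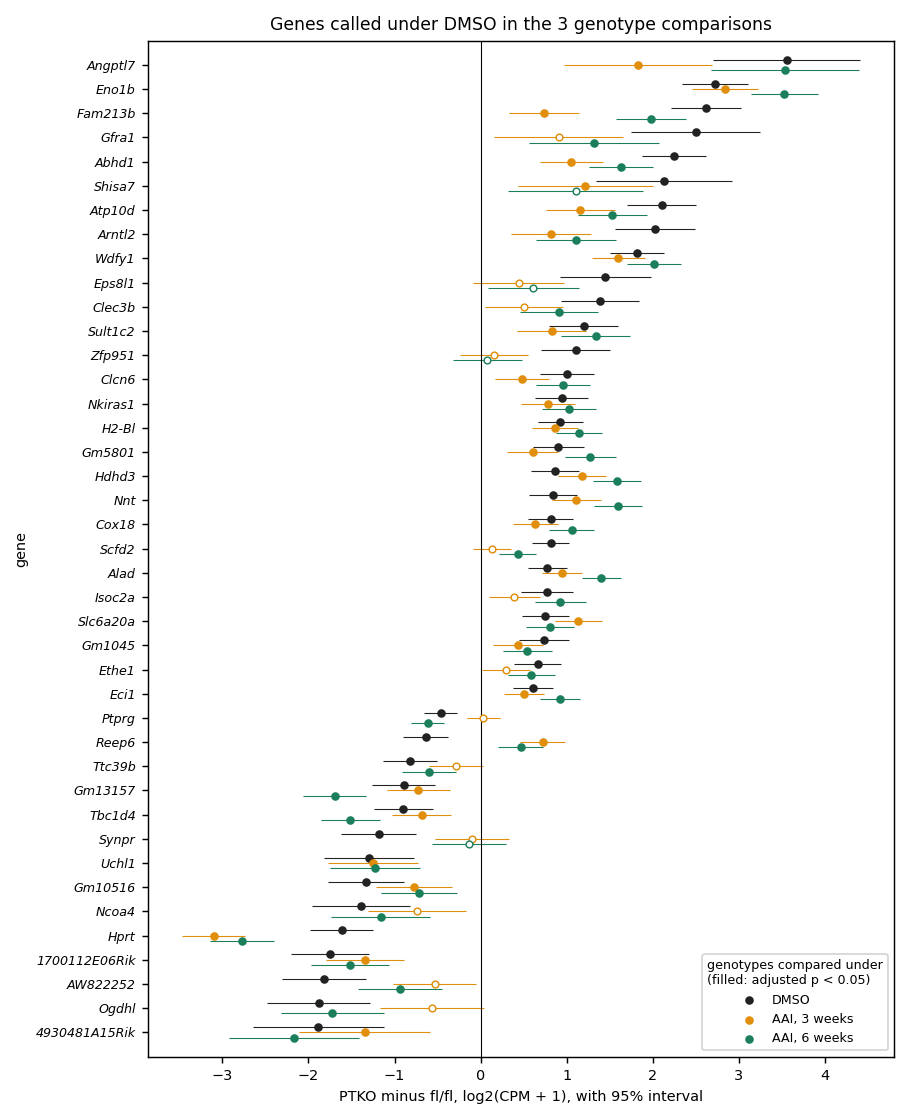
Rows are 41 of the 42 genes called under DMSO, ordered by their DMSO difference, and the horizontal axis is the PTKO minus fl/fl difference in log2(CPM + 1) with its 95% interval under DMSO (black), at 3 weeks (orange) and at 6 weeks (green). Filled points passed an adjusted p of 0.05, and the points keep the side of 0 that they had under DMSO in all rows but Reep6 and, at 3 weeks, Ptprg.

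Below the call threshold the 3 comparisons shared more genes. An unadjusted p under 0.05 in all 3 was found for 193 genes, a rule chosen after the data were seen, and 172 of them (1.18% of tested genes) had the same direction each time, 81 higher and 91 lower. An unadjusted p under 0.05 alone was found for 30.1% of tested genes at 3 weeks and 31.9% at 6 weeks. The other 21 did not. Of the 853 genes called in the same direction at both AAI times, 590 (69.2%) had that sign under DMSO as well. Of the same 853 genes, 92 had an unadjusted p under 0.05 with that sign under DMSO, 5 had one with the opposite sign, and 26 (3.05%) were DMSO calls.

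By position, all 42 genes could be placed, with 14537 of the 14604 tested genes. Chromosomes 4, 5 and 14 held 23 of the 42 (54.8%) and 16.1% of the tested genes. They were picked because they held the most calls, so their joint share is high by that choice and is a description only. Chromosome 14 held 8 of 494 tested genes (1.62%), 6 of them lower, chromosome 5 held 8 of 917 (0.872%), 7 of them higher, and chromosome 4 held 7 of 927 (0.755%), 5 of them higher. Chromosomes 2, 3, 8, 11, 12, 15, 16 and Y held none. Of the 172 genes with the same direction in all 3 comparisons, chromosome 17 held 18 (2.52% of its tested genes), chromosome 5 held 23 (2.51%) and chromosome 4 held 22 (2.37%). Chromosomes 10 and 16 held 1 each (0.145% and 0.216%). Around Klf6 itself, none of the 94 genes tested within 20 Mb on chromosome 13 was called by limma, and 7 (7.45%) had an unadjusted p under 0.05, against 0.288% and 6.53% of all tested genes. Nothing is read from these counts. Calls by edgeR and DESeq2 in that window were not counted.

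**Figure D4:**
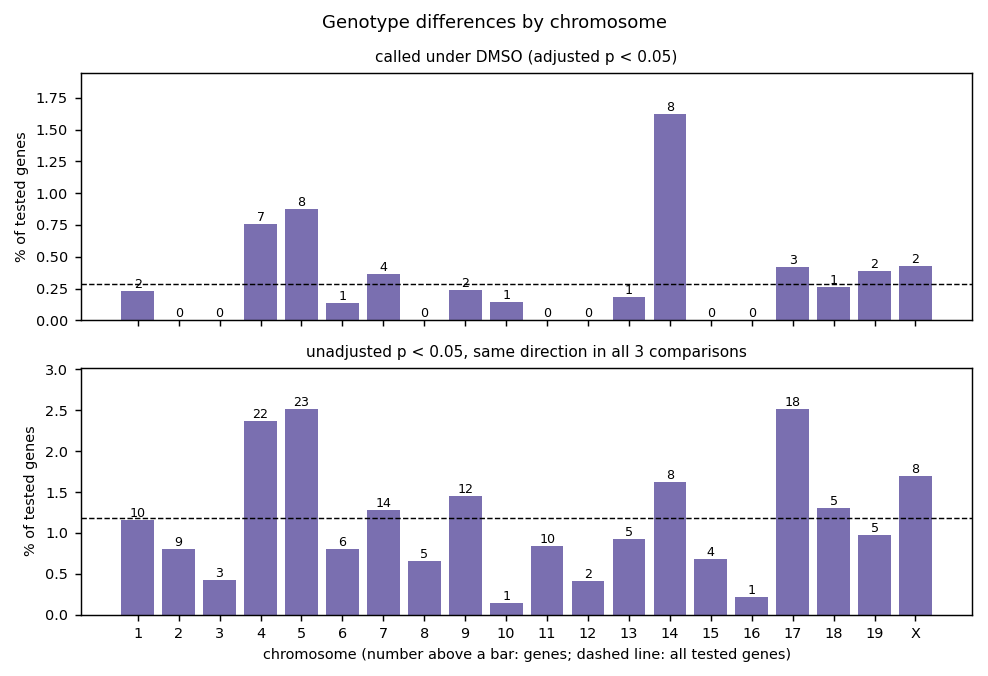
Bars give, for each chromosome, the percent of its tested genes that were called under DMSO (upper panel) or had an unadjusted p under 0.05 with the same direction in all 3 genotype comparisons (lower panel), with the number of genes above each bar and the percent over all tested genes as a dashed line. Chromosome 14 stands highest in the upper panel at 1.62%, and chromosomes 17, 5 and 4 in the lower one.

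Within chromosomes, 14 of the 42 lay within 1 Mb of another call, in 6 groups. The share of all tested genes that lie within 1 Mb of a call was not computed, so no clustering is read from this count. A group of 3 on chromosome 4 ran from Gm13157 over Clcn6 to Angptl7 (chr4:147753974-148500460, 746 kb). It was mixed in direction, with Gm13157 at -0.89, Clcn6 at 1.0 and Angptl7 at 3.55. Of the 18 genes tested between its ends, 12 had an unadjusted p under 0.05, 7 higher and 5 lower, where 6.53% of all tested genes had one. The 3 calls that define the group are among the 12 by that choice. Among those that did not pass, Fbxo44, a substrate adaptor of ubiquitin ligases, had 14.5, 13.5 and 5.12 CPM in PTKO-labelled libraries and 20.8, 21.9 and 23 CPM in fl/fl libraries (-1.04, limma adjusted p = 0.175). Miip, an inhibitor of cell migration, had 7.79, 6.69 and 3.18 CPM in PTKO-labelled libraries and 10.8, 12.3 and 12.3 CPM in fl/fl libraries (-0.96, adjusted p = 0.271). PTKO replicate 3 was the extreme PTKO-labelled library in 6 of those 7 higher genes and in all 5 lower ones.

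The other group of 3 lay on chromosome 7 with Eps8l1, Shisa7 and Isoc2a (chr7:4460674-4896973, 436 kb), all higher. Of 19 genes tested there 5 had an unadjusted p under 0.05, all of them higher, where 6.53% of all tested genes had one. The 3 calls that define the group are among these 5 by that choice. Isoc2b was another of the 5, with 11.9, 19.2 and 22 CPM in PTKO-labelled libraries and 7.63, 7.52 and 9.25 CPM in fl/fl libraries. The 14 others had an unadjusted p over 0.05 and differences of -0.14 to 0.27, among them Ppp6r1, a phosphatase subunit, at 0.06 and Hspbp1, a chaperone partner, at 0.04. Neither group of 3 remained without fl/fl replicate 1, fl/fl replicate 2, PTKO replicate 2 or PTKO replicate 3. Without fl/fl replicate 3, Gm13157 and Isoc2a lost their calls, so neither group kept all 3 of its genes there. The 2 runs counted in that fit are therefore not these same groups.

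Pairs made up the rest. Hdhd3 and Alad start 10.2 kb apart, and of the 19 other genes tested within 1 Mb of Alad, Hdhd3 was the only call by limma. Ncoa4 and Ogdhl start 162 kb apart on chromosome 14, both lower, and Clec3b and Slc6a20a 484 kb apart on chromosome 9, both higher. On the X chromosome, Hprt and the transcribed pseudogene AW822252 start 708 kb apart and both were lower. AW822252 had 1.30, 1.25 and 1.51 CPM in PTKO-labelled libraries and 6.66, 9.45 and 6.13 CPM in fl/fl libraries under DMSO. The 6 tested genes between them differed by -0.21 to 0.02, among them Mospd1 at -0.08 and Fam122b at 0.02. Just beyond AW822252, the tested gene 4930502E18Rik, 0.737 Mb from Hprt, differed by -0.82 without passing (unadjusted p = 0.000276, limma adjusted p = 0.0807). Phf6, the nearest tested gene on the other side, differed by 0.04. Gpc4, a cell surface proteoglycan 0.935 Mb before Hprt, averaged 256 ± 15.3 CPM in PTKO-labelled libraries and 209 ± 2.16 CPM in fl/fl libraries (SD, n = 3 each, 0.29, limma adjusted p = 0.261).

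**Figure D5:**
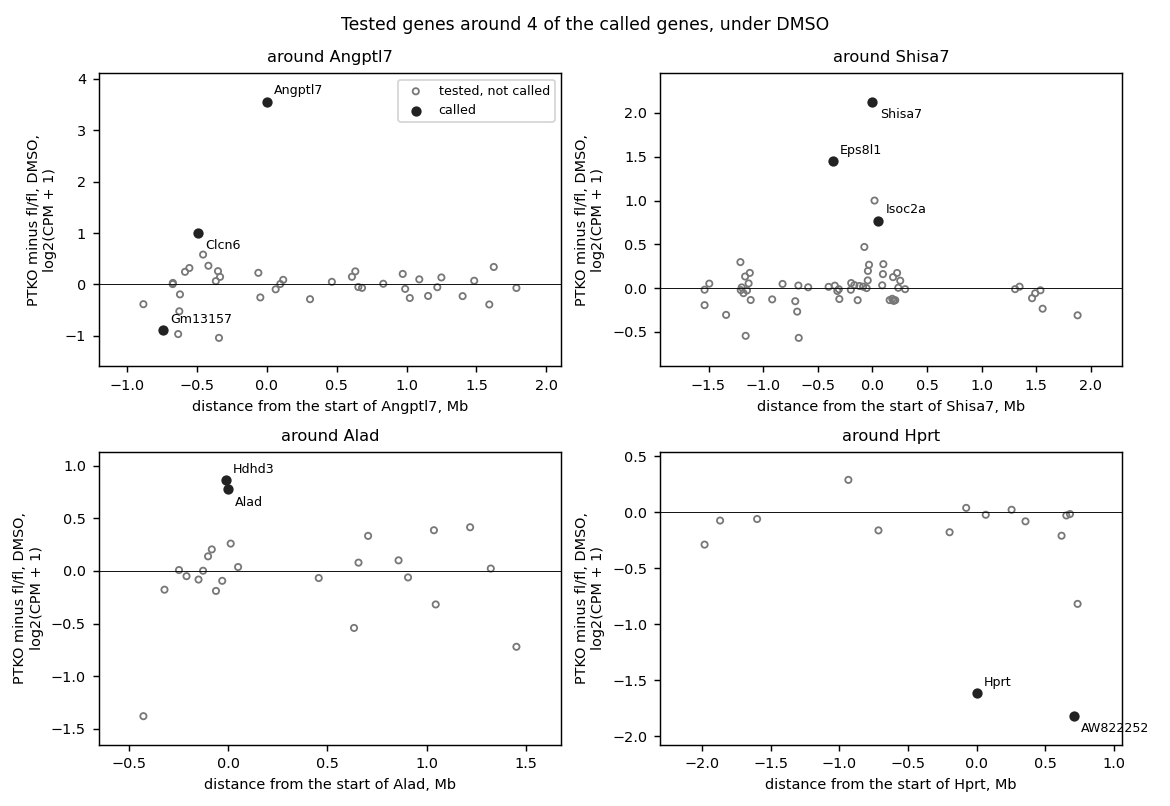
Each panel shows the tested genes within about 2 Mb of a called gene, by distance from its start in Mb (horizontal) and PTKO minus fl/fl difference under DMSO in log2(CPM + 1) (vertical), with called genes filled. Around Hprt the 6 tested genes between it and AW822252 lie at -0.21 to 0.02, while 4930502E18Rik beside AW822252 lies at -0.82 and was not called, and around Alad the neighbour Hdhd3 stands beside it.

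Several large differences were not called and had libraries of a group far apart. They were picked after their values were seen. Ugt2b38, a glucuronosyltransferase on chromosome 5, had 452, 431 and 0.269 CPM in PTKO-labelled libraries, against 992, 944 and 877 CPM in fl/fl libraries (-3.90, limma adjusted p = 0.518). PTKO replicate 3 was nearly without it, while the other PTKO-labelled libraries lay below the fl/fl range. At 3 weeks of AAI it had 116, 235 and 212 CPM in PTKO-labelled libraries and 384, 159 and 161 CPM in fl/fl libraries. After 6 weeks Ugt2b38 had 0.208, 0.0526 and 0.0511 CPM in PTKO-labelled libraries and 124, 227 and 217 CPM in fl/fl libraries (-7.38, adjusted p = 0.00571). The kallikrein Klk1b22 had the reverse pattern, with 0.3, 19.0 and 42.3 CPM in PTKO-labelled libraries, against 0.727, 0.508 and 0.423 CPM in fl/fl libraries under DMSO. It was above 17 CPM in all 3 PTKO-labelled libraries at 6 weeks and in replicate 1 alone at 3 weeks. Gm8615, on chromosome 5, had 7.34, 0.289 and 0.269 CPM in PTKO-labelled libraries, against 7.08, 14.7 and 14.2 CPM in fl/fl libraries.

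In other genes it was the fl/fl libraries that split. Rnase4, a secreted ribonuclease, had 239, 191 and 187 CPM in PTKO-labelled libraries, against 15.4, 10.3 and 167 CPM in fl/fl libraries (2.71, limma adjusted p = 0.159). Ang, the angiogenin gene that overlaps it, had 17.0, 12.1 and 12.8 CPM in PTKO-labelled libraries, against 1.88, 1.12 and 10.5 CPM in fl/fl libraries. Eddm3b, nearby on chromosome 14, had 35.6, 50 and 36.1 CPM in PTKO-labelled libraries, against 0.484, 1.17 and 33.8 CPM in fl/fl libraries. In all 3 genes fl/fl replicate 3 stood near the PTKO-labelled libraries. Cyp4a12a, an androgen-dependent arachidonic acid hydroxylase on chromosome 4, did not overlap at all, with 784, 684 and 587 CPM in PTKO-labelled libraries, against 241, 286 and 221 CPM in fl/fl libraries. Its difference of 1.45 had an adjusted p of 0.518 with the spread pooled over all 18 libraries and of 0.0219 with the DMSO groups fitted alone.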

How the data were processed

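Kidney cortex RNA was sequenced from TruSeq Stranded Total RNA libraries, per the labels' protocols. The authors deposited 1 table of CPM for 24062 gene symbols in 18 libraries. The submitters' processing notes name bcl2fastq 2.19, kallisto and mm10. The counting step and annotation are not given in the sources used here. All 433116 values were whole reads within 0.01 read, so read totals were recovered (11722625 to 27213219). Genes with at least 1 CPM in 3 or more libraries (14604) were fitted on log2(CPM + 1) with limma 3.58.1 (R 4.3.3). The model held 1 mean for each of the 6 groups, all 18 libraries sharing the spread, with a variance trend, two-sided tests and Benjamini-Hochberg adjustment at 0.05. Every adjusted p in the text is limma's unless another tool is named. edgeR 4.0.16 and DESeq2 1.42.0 on recovered reads were alternatives. Only the limma fit was tested on simulated data. Positions came from GENCODE M21 (22686 symbols) and otherwise RefSeq GRCm38.p6 (1212). Replicate numbers did not pair libraries. Every called gene is named but 1, which is not reported here. The comparison, the gene lists and the named genes were chosen with earlier results of these data known. Intervals on reads cover counting error only.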

Additional observations from a re-analysis of the deposited data

Results flagged for a closer look

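The genotype difference changed between DMSO and AAI, by limma's interaction test, in 3 of the 42 genes called under DMSO. For Fam213b the difference at 3 weeks minus that under DMSO was -1.882 on the log2(CPM + 1) scale (limma adjusted p = 0.0109). It had 19.8, 24.8 and 22 CPM in PTKO-labelled libraries and 11.9, 13.7 and 13.1 CPM in fl/fl libraries at 3 weeks, so PTKO-labelled kidneys were lower than under DMSO and fl/fl kidneys higher. For Hprt the same quantity was -1.484 (limma adjusted p = 0.0277), with the fl/fl libraries higher and the PTKO-labelled libraries lower at 3 weeks than under DMSO. For Reep6 it was 1.359 at 3 weeks (limma adjusted p = 0.00558) and 1.101 at 6 weeks (limma adjusted p = 0.0345), and the sign of the genotype difference turned at both times. Both AAI interactions of a gene use the same DMSO libraries. The number of such genes under other settings is given in the next section.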

How the results depend on the processing

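Under DMSO limma called 18 genes with the compared groups alone (14 higher, 4 lower, 13 among the 42). DESeq2 called 113 (66 higher, 47 lower, 41 among the 42). Of the 42, 24 also differed by at least 1 in log2(CPM + 1), called the fold minimum here (15 higher, 9 lower). That scale understates low genes. Gm5801 fell short at 0.904, with 56 reads in PTKO-labelled libraries and 2 in fl/fl libraries. edgeR called 33, with 8 lower and 32 among the 42. Leaving out single libraries gave 26 to 53 calls, 20 to 35 higher and 6 to 18 lower, with 26 without fl/fl replicate 1, 26 without fl/fl replicate 2, 28 without PTKO replicate 3 and 53 without fl/fl replicate 3.

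Recurrence at 3 weeks was 10 genes with the groups alone, 46 with DESeq2, 10 with the fold minimum and 17 to 27 without single libraries. At 6 weeks it was 8, 71, 16 and 24 to 39 in that order of settings, and at both times 7, 42, 9 and 17 to 25. All calls at 3 weeks numbered 470 with the fold minimum and 360 to 2517 without single libraries. At 6 weeks they numbered 163 with the groups alone, 489 with the fold minimum and 441 to 3765 without single libraries.

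DMSO calls with an interaction at 3 weeks numbered 1 without the filter, 9 with the groups alone and 30 with DESeq2. At 6 weeks they numbered 13 with DESeq2 and 0 with a pseudocount of 0.1, no filter, median-of-ratios scaling, the groups alone, edgeR or the fold minimum. Runs of 3 or more calls numbered 1 without the filter or with edgeR, 5 with DESeq2, 0 with the groups alone, the fold minimum or without both adipocyte-rich libraries (chosen after seeing the data), and 0 to 2 without single libraries.

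Same-numbered libraries deviated at correlations of -0.254, 0.066 and -0.088, so the numbers do not pair them. A replicate block gave 36 calls, 34 of them among the 42, with 9 lower and 1 run. Of 445 alternatives for named genes, 354 kept the call, 91 lost it and 0 reversed, and 8 of the 42 genes were tested and called under every setting. The causes were not tested. With 3 libraries a group, differences smaller than the spread between libraries were not detectable.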
